A study of Arabidopsis thaliana with 2 samples.

Results

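ER bodies are spindle-shaped compartments of the endoplasmic reticulum (ER), found in Arabidopsis and its relatives, that store beta-glucosidases. They are known to be present in seedlings and roots and to form in mature leaves after wounding or jasmonate. When a cell is broken, the stored glucosidases meet glucosides from the vacuole and lectins from the cytosol, and the products released are held to act in defence. Their genes were examined by locus from the regulator NAI1 to the stored enzymes and the lectins that bind them. Of 10 listed loci, 6 had a feature named for that gene alone and were measured, out of 9236 genes measured on the arrays. These were NAI1, NAI2, PYK10, BGLU21, BGLU22 and JAL31. The other 4, TSA1, MEB1, MEB2 and PBP1, were not analysed here. The loci were selected on the log2 ratios of cer6-2 over Ler-0 in these same 2 arrays, which had been seen when the list was proposed, so every value below is a description and carries no test.

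The comparison was between cer6-2, an Arabidopsis thaliana mutant short of surface wax, and Ler-0, the wild-type Landsberg erecta accession. CER6 encodes an enzyme that lengthens fatty acids for the wax layer. Both groups were untreated leaves and stems of plants given as 15 days old by the sample labels and as 2 weeks by the design text, and each genotype was a pool of 20 plants. The 2 pools were hybridised together on 2 two-colour Agilent arrays, with cer6-2 in Cy3 on array 1 and in Cy5 on array 2. Each genotype was thus 1 biological sample, so no replicate check of the genotype difference exists. The ± values are SDs over both arrays (n = 2, technical), without any variation between plants. All values are log2 ratios of cer6-2 over Ler-0. That direction is likely and not settled, because the dyes are stated but the numerator of the deposited ratios is not. Cy5 over Cy3 was assumed, and with the opposite convention higher and lower change places. Signal levels are not used here, since the table holds ratios alone. A ratio close to 0 may therefore come from a barely detected transcript. Because each pool mixes the RNA of all its cells, fewer cells of a type cannot be told apart from less RNA per cell.

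NAI1, NAI2 and PYK10 stood higher in cer6-2, from 1.66-fold to 1.84-fold. They encode a regulator, a structural protein and the main stored enzyme of seedlings and roots. BGLU21, a close relative of PYK10, stood 1.68-fold lower, and its tandem neighbour BGLU22 differed in sign between the arrays. The lectin gene JAL31 was above 0 in both arrays, but barely so in array 2. No member was at least 2-fold apart in both arrays, against 0.595% of all genes higher and 0.725% lower by that rule. At 1.5-fold in both arrays, 3 of the 6 were higher and none lower, against 1.8% and 1.91% of all genes. These percentages are printed beside the counts only, since the loci were selected on this same contrast.

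NAI1 (AT2G22770) encodes a basic helix-loop-helix transcription factor without which seedlings lack ER bodies and express little PYK10. Its ratio was 0.79 in array 1 and 0.98 in array 2, with a mean of 0.88 ± 0.13, or 1.84-fold higher in cer6-2. Both arrays were high and the second was just short of 2-fold, at 1.97-fold. Of the 9236 genes, 117 had a higher mean than NAI1. When genes were ordered by the weaker of their arrays, 89 stood higher.

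NAI2 (AT3G15950) encodes a protein of the ER body itself that is needed for the bodies to form. It stood at 0.93 in array 1 and 0.65 in array 2, a mean of 0.79 ± 0.20, or 1.73-fold higher. Both arrays again lay on the same side, here with the first array the higher one, and 155 genes had a higher mean. TSA1, an NAI2-like protein, and MEB1 and MEB2, metal transporter-like proteins of the ER body membrane, complete the structural members and have no value here.

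PYK10 (AT3G09260, also BGLU23) is the most abundant beta-glucosidase of ER bodies in seedlings and roots, and it can hydrolyse scopolin and indole glucosinolates. Its ratios of 0.79 in array 1 and 0.68 in array 2 gave a mean of 0.73 ± 0.08, or 1.66-fold higher in cer6-2. The arrays differed by 0.11 on the log2 scale, and only 17.1% of all genes had a smaller SD between them. That made PYK10 the most closely repeated of the 6 members. In the gene table PYK10 overlaps its neighbour AT3G09250 at one end. AT3G09250 had its own feature and stood at 0.14 in array 1 and -0.50 in array 2. Whether the PYK10 feature also takes up signal from AT3G09250 was not tested.

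BGLU21 (AT1G66270) and BGLU22 (AT1G66280) are adjacent genes for beta-glucosidases of the same subfamily as PYK10, and both enzymes are known to hydrolyse scopolin. BGLU21 stood at -0.57 in array 1 and -0.94 in array 2, a mean of -0.75 ± 0.26, or 1.68-fold lower in cer6-2. Both arrays were low, although the first missed 1.5-fold narrowly, at 1.48-fold. BGLU22 stood at 0.06 in array 1 and -0.58 in array 2, with a mean of -0.26 ± 0.45. The arrays thus gave BGLU22 no common direction. Opposite signs were frequent on these arrays and occurred for 53.6% of all genes. The coding sequences of PYK10, BGLU21 and BGLU22 are closely similar and the probe sequences were not used here, so signal shared between these genes could not be checked.

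JAL31 (AT3G16430), also named PBPII, is a jacalin-related lectin next to PBP1, whose product binds PYK10. It stood at 0.81 in array 1 and 0.07 in array 2, with a mean of 0.44 ± 0.52. The spread exceeded the mean, and 80.8% of all genes had a smaller SD between arrays. In array 1 alone JAL31 was level with NAI1 and PYK10, and in array 2 it was near 0.

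**Figure D1:**
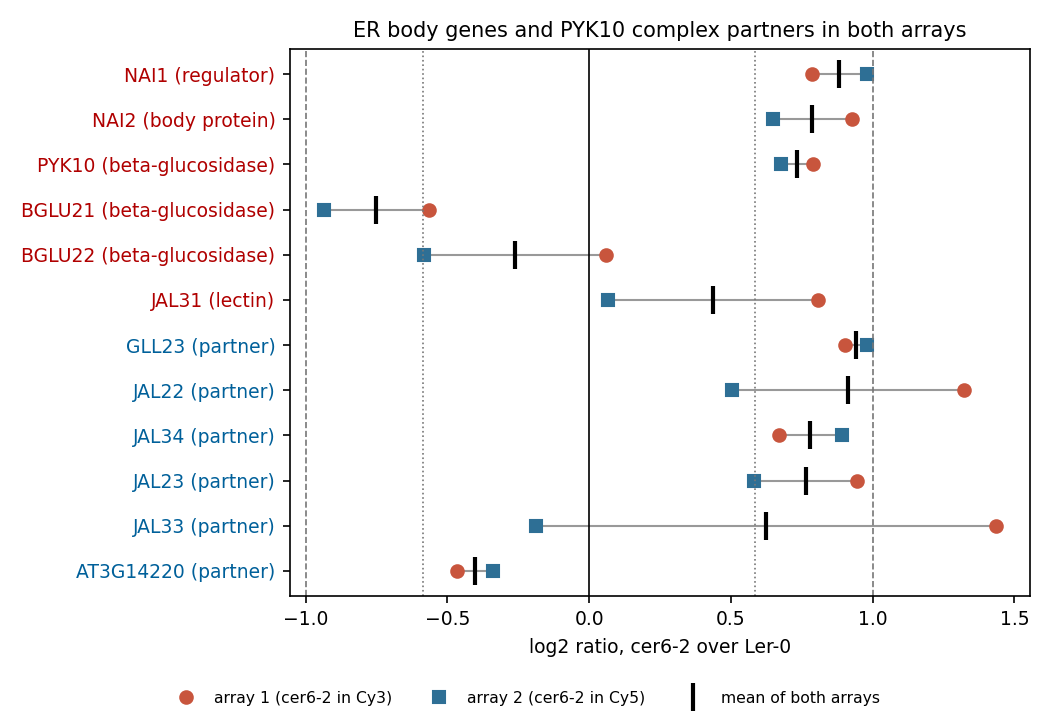
Log2 ratio of cer6-2 over Ler-0 (x axis) for the 6 ER body genes measured, in red, and for 6 genes listed as partners of PYK10, in blue. Circles are array 1, squares array 2 and upright bars their mean, with dotted lines at 1.5-fold and dashed lines at 2-fold. NAI1, NAI2 and PYK10 sit between 0.65 and 0.98 in both arrays, and BGLU21 lies below 0 in both.

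The members were then set against each other within each array, which compares ratios and not levels. NAI1 minus PYK10 was -0.0028 in array 1 and 0.30 in array 2, a mean of 0.15 ± 0.21. NAI2 minus PYK10 was 0.14 and -0.03, a mean of 0.05 ± 0.12. The regulator, the body protein and PYK10 thus differed from each other by less than the spread between arrays. JAL31 minus PYK10 was 0.02 in array 1 and -0.61 in array 2, also within its spread, at -0.30 ± 0.44.

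The glucosidases differed among themselves. BGLU21 lay below PYK10 by a log2 difference of -1.36 in array 1 and -1.61 in array 2, and the mean of -1.49 ± 0.18 corresponds to a 2.80-fold gap between their ratios. BGLU22 minus PYK10 was -0.73 and -1.26, with a mean of -0.997 ± 0.375. Both tandem genes were below PYK10 in each array. BGLU21 was also the lower of the tandem pair in each array, by -0.62 and -0.35. Over the 6 members the median ratio was 0.59, against 0 for all genes. It was 0.79 in array 1 and 0.36 in array 2. Of the 6, 4 were above 0 in both arrays, against 23.1% of all genes, and 1 below 0 in both, against 20.4%.

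**Figure D2:**
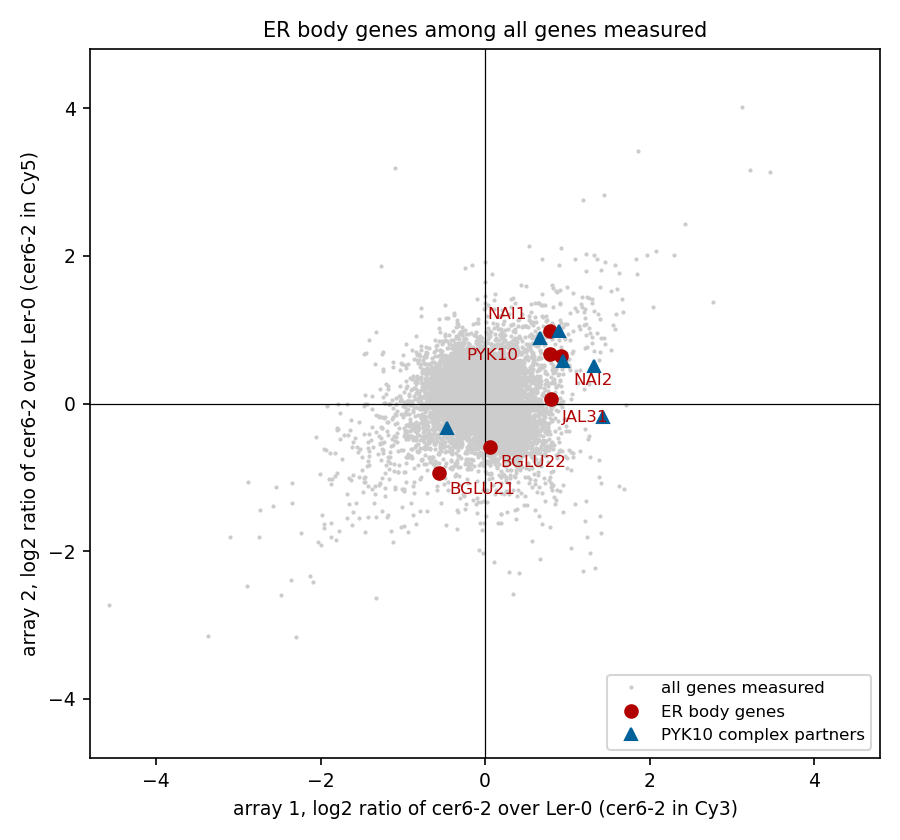
Log2 ratio of cer6-2 over Ler-0 in array 1 (x axis) and array 2 (y axis) for all 9236 genes measured, in grey, with the ER body genes as red circles and the PYK10 partners as blue triangles. NAI1, NAI2 and PYK10 lie together at the upper right edge of the main cloud and BGLU21 at its lower left edge.

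PYK10 released from broken cells forms large complexes with jacalin-related lectins and GDSL lipase-like proteins. Of 11 listed partners 6 were measured, and none was 2-fold apart in both arrays, against 0.595% of all genes higher and 0.725% lower. The 6 had a median of 0.77 (0.92 in array 1 and 0.54 in array 2), and 4 of them were above 0 in both arrays, against 23.1% of all genes. GLL23 (AT1G54010), a GDSL lipase-like protein, stood at 0.90 in array 1 and 0.98 in array 2, a mean of 0.94 ± 0.06. GLL23 minus PYK10 was 0.11 and 0.30 in the 2 arrays, so GLL23 had the slightly higher ratio in both.

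The measured lectins among the partners had means above 0 and unequal spreads. JAL22 stood at 1.32 in array 1 and 0.50 in array 2 (0.91 ± 0.58). JAL33 stood at 1.44 and -0.19 (0.62 ± 1.15), so its arrays disagreed in sign. JAL23 and JAL34, which the naming rule leaves out and which were added after their values were seen, were more even between arrays. JAL23 stood at 0.94 and 0.58 (0.76 ± 0.25). JAL34, the mean of 2 features, stood at 0.67 and 0.89 (0.78 ± 0.16). Its separate features had means of 0.88 and 0.69. JAL34 overlaps the neighbouring lectin gene JR1 in the gene table, so its signal may include that gene. The lowest listed partner, AT3G14220, was at -0.46 and -0.34 (-0.40 ± 0.09), below 0 in both arrays. AT3G14220 overlaps its neighbour GLIP4 by 57 bases in the gene table, so its signal may include GLIP4. At 1.5-fold in both arrays, GLL23 and JAL34 were higher and none of the 6 lower, against 1.8% and 1.91% of all genes.

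The wider lectin family was centred near 0. Of 46 loci listed as jacalin-related, 21 were measured, and 16 of these were neither members nor partners. Those 16 had a median of -0.05, with 3 above 0 in both arrays (23.1% of all genes), 3 below 0 in both (20.4%), 8 of opposite sign and 2 listed at 0. The highest were AT1G52000, at 1.301 in array 1 and 1.41 in array 2 (1.36 ± 0.08), and AT1G33790, at 0.98 and 1.08 (1.03 ± 0.07). AT1G52000 was the only one of the 21 at least 2-fold higher in both arrays, against 0.595% of all genes. Both genes repeated closely under exchanged dyes. The lowest were AT5G38550 at -0.27 ± 0.04 and AT1G52100 at -0.25 ± 0.51.

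**Figure D3:**
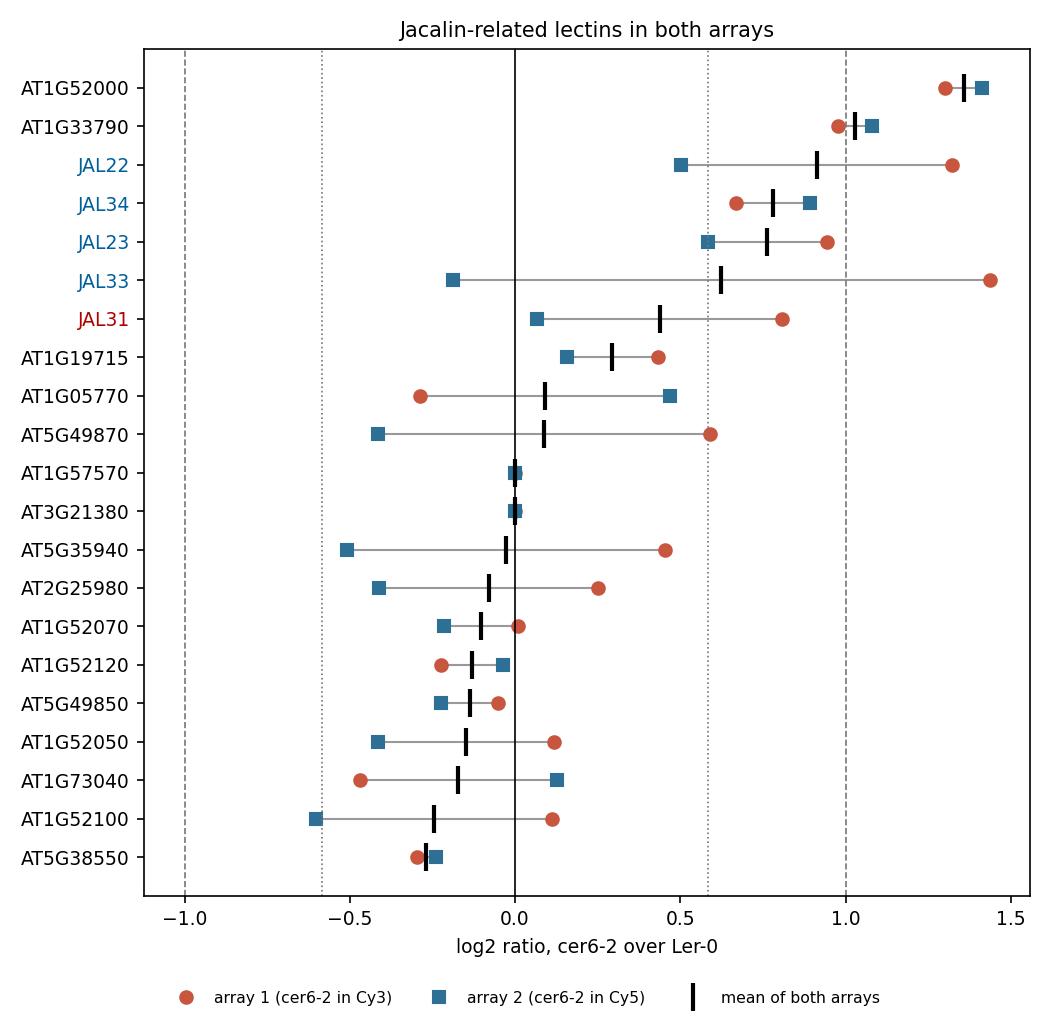
Log2 ratio of cer6-2 over Ler-0 (x axis) for the 21 jacalin-related lectin genes measured, ordered by mean. Circles are array 1, squares array 2 and upright bars their mean, with dotted lines at 1.5-fold and dashed lines at 2-fold. JAL31 is named in red and the PYK10 partners in blue. The 7 highest means hold AT1G52000, AT1G33790, JAL31 and the 4 measured lectin partners.

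The beta-glucosidases of glycoside hydrolase family 1 number 47 on the list used, and 18 were measured. The family as a whole was centred near 0, with a median of -0.07, 5 genes above 0 in both arrays and 7 below 0 in both, against 23.1% and 20.4% of all genes. Of the others, 5 had opposite signs and BGLU20 was listed at 0. In all, 166 genes were listed at exactly 0 in both arrays, and whether such a 0 is a measured ratio is not known. The highest were BGLU45 and BGLU46, adjacent genes for enzymes that hydrolyse monolignol glucosides, the stored precursors of lignin. BGLU45 stood at 1.36 in array 1 and 1.96 in array 2 (1.66 ± 0.42), and it was the only family member at least 2-fold higher in both arrays, a rule met by 0.595% of all genes. BGLU46 stood at 0.91 and 1.54 (1.23 ± 0.45). PYK10 was the remaining one of 3 family members at least 1.5-fold higher in both arrays, and none was that much lower, against 1.8% and 1.91% of all genes.

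BGLU21 had the lowest mean of the 18 family members measured. BGLU47 was next, at -1.21 in array 1 and -0.18 in array 2 (-0.70 ± 0.73), a mean carried mostly by array 1. Near PYK10 in the order stood BGLU19 and BGLU24, named after their values were seen. BGLU19 was at 0.11 in array 1 and 1.41 in array 2 (0.76 ± 0.92), so it rested on array 2. BGLU24 was at 0.82 and 0.52 (0.67 ± 0.22), above 0 in both arrays. BGLU25, also named after its values were seen, was at -0.34 and -0.39 (-0.36 ± 0.04), below 0 in both. Without the 3 enzymes on the ER body list, the other 15 had 7 means above 0 and 7 below. Their median was 0, the value listed for BGLU20.

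**Figure D4:**
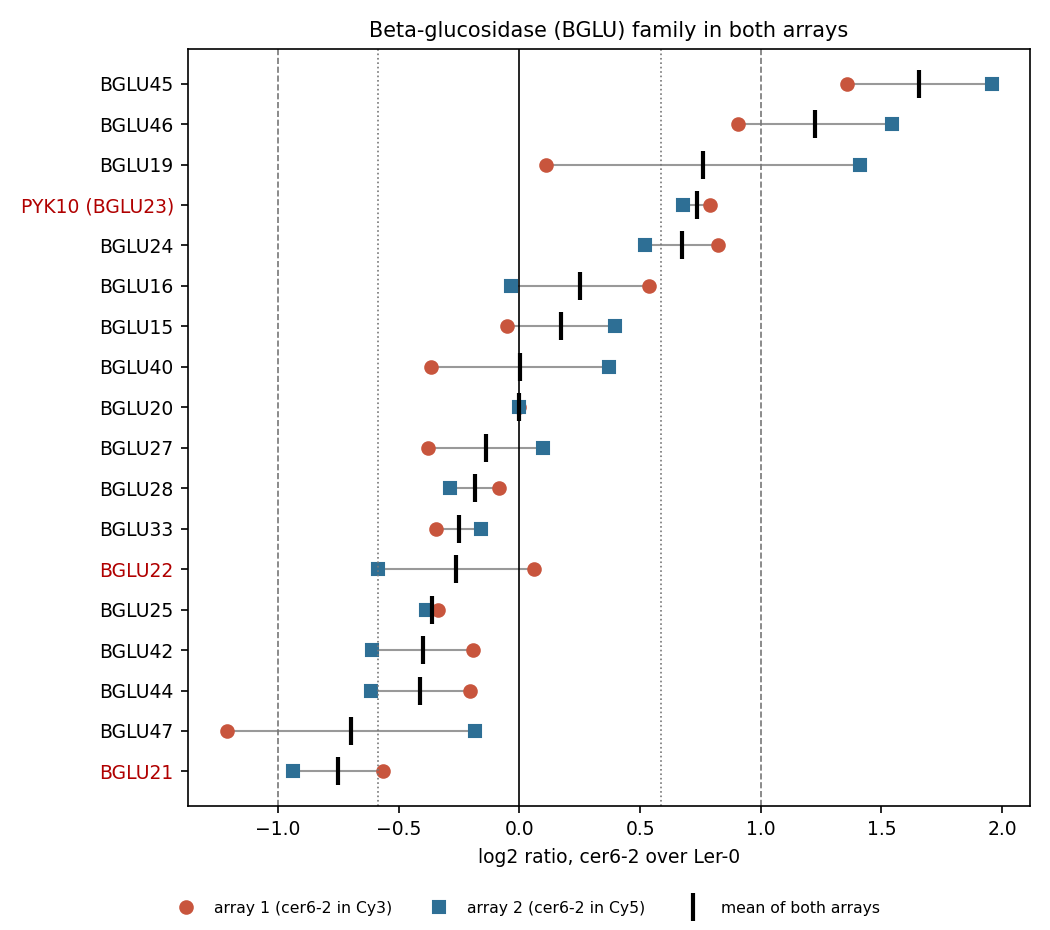
Log2 ratio of cer6-2 over Ler-0 (x axis) for the 18 beta-glucosidase genes measured, ordered by mean, with the ER body enzymes named in red. Circles are array 1, squares array 2 and upright bars their mean, with dotted lines at 1.5-fold and dashed lines at 2-fold. PYK10 is among the higher genes and BGLU21 is the lowest, while BGLU45 and BGLU46 lead the family.

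Other genes around the ER body were thinly covered. AT2G22750, which lies near NAI1 on the chromosome, stood at -0.20 in array 1 and 0.0035 in array 2. AT4G37850, listed with it as an NAI1 relative, stood at -0.50 and 0.30. Neither shared the ratios of NAI1, and both had opposite signs in the arrays. General ER folding was represented by the chaperone gene BIP1 at -0.24 ± 0.57 and the calreticulin gene CRT1b at -0.22 ± 0.33, each with opposite signs in the 2 arrays. UGT74B1, a glucosyltransferase of glucosinolate synthesis, stood at 0.78 in array 1 and -0.38 in array 2. No listed nitrile or epithionitrile specifier protein and no listed jasmonate response gene was measured. Of the immediate neighbours of the members, AT3G15940 beside NAI2 stood at 0.22 ± 0.03 and AT1G66260 beside BGLU21 at 0.28 ± 1.41.

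PYK10 is strongly expressed in roots, so root markers were set beside these values. Of 10 listed, 3 were measured. None was above 0 in both arrays, against 23.1% of all genes, and 2 had opposite signs, against 53.6%. With 3 genes these counts are a description only. EXPA7 stood at 0.26 in array 1 and -1.18 in array 2, EXPA18 at 0.06 and -0.37, and XTH26 was listed at 0 in both. Their median was 0.06 in array 1 and -0.37 in array 2, so these markers gave no common direction. The leaf markers RCA, LHCB4.1 and LHCB4.2 stood at 0.08 ± 0.04, 0.08 ± 0.07 and 0.25 ± 0.66. The part of tissue composition in the ER body ratios was not tested, and without signal levels the labelled tissue could not be checked.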

How the data were processed

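For each of 22575 features the authors deposited 1 value an array, taken here as a log10 ratio between channels. The base is an inference from the extremes, -2 and 2, where a 100-fold log10 ratio would stop. The sources used here do not give the background correction, dye normalisation or filters. Array 1 was multiplied by -1 by its dyes, and values were converted to log2. Before turning, 122 genes were 2-fold or more from 0 with opposite signs in the columns and 15 with equal signs, and on that count the deposited columns were treated as unturned.

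Features were named by gene identifier through the platform annotation and the TAIR10.1 gene table. Single-gene matches were found for 9317 features, and a gene's features were averaged. Python 3.11.15, pandas and matplotlib were used, and the counting was tested on simulated data. A call needs 2-fold (or 1.5-fold) the same way in both arrays and is a rule of size. The members, the lists and the rules were chosen with earlier results of these data known. Named are all members, the 2 highest and 2 lowest measured genes of each other list, and beta-glucosidase genes at least 1.5-fold apart in both arrays. The lists are partners of PYK10, NAI1 relatives, beta-glucosidases, jacalin-related lectins, specifier proteins, indole glucosinolate synthesis, ER chaperones, jasmonate response, root markers and leaf markers. The 2 arrays limit only the technical precision, and 1 pool per genotype leaves the genotype difference without a replicate check. Alternatives were centring, probe and array choices, thresholds, the log base and the turning of the columns.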

Additional observations from a re-analysis of the deposited data

How the results depend on the processing

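Centring shifted the means of all 6 ER body genes alike, for NAI1 from 0.88 to 0.87. That shift is set by the array medians and was below the smallest spread of the 6, 0.08 for PYK10. Centring thus could not take any of the 6 past its spread between arrays. Leaving out probes over 2-fold apart between arrays and taking the median of a gene's features could not move any of the 6, because each had 1 feature and none differed that much. The number of members called higher was 0 at 2-fold and at 3-fold, and 3 at 1.5-fold. By single arrays the number above 0 ran from 4 to 5, the median from 0.36 to 0.79, and BGLU21 minus PYK10 from -1.61 to -1.36. BGLU22 changed sign between the arrays. Read as log2, the table gave a median of 0.18 and a BGLU21 minus PYK10 difference of -0.45, by construction of the scale. If the deposited columns had already been turned, 0 members were above 0 in both arrays, the median was -0.16 and BGLU21 minus PYK10 was -0.13, so the direction of the members rests on the turning of array 1. As a mean over members the centre was 0.30. No paired analysis was possible because the 2 arrays hold the same 2 RNA pools. How far weak signal limits these ratios could not be judged, since the table holds no intensities.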
